A study of Rattus norvegicus with 12 samples.

Results

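The genes described here are interferon-stimulated genes, a set of 9 chosen by name: Zbp1, Irf1, Irf7, Isg15, Mx1, Mx2, Gbp2, Ifit3 and Cxcl10. Of the 17423 genes listed for this series, 7 of these 9 were found. Isg15 and Gbp2 could not be matched to a listed gene and were not analysed here. The tissue was a 1-mm segment of spinal cord through the epicenter of a moderate contusion (200 kdyn), taken from female rats that were 16 to 18 weeks old when injured. Immunocompetent Sprague-Dawley (SD, Hsd:SD) rats were compared with T cell-deficient athymic nude (AN, Hsd:RH-rnu/rnu) rats 1 week after injury, called the acute phase, and 8 weeks after injury, called the chronic phase, with 3 rats in each of the 4 groups. All groups were injured, so no level in uninjured cord is given. AN rats lack a thymus and are of another stock than SD rats, so T cell deficiency and strain background cannot be told apart in any difference below. Polyadenylated RNA was sequenced in bulk, so fewer cells of a type and less RNA per cell cannot be told apart either.

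Expression is given in FPKM, fragments per kilobase of transcript scaled to the fragments mapped, a unit that allows for gene length. The tables hold 1 FPKM value for each group of 3 rats, so no value has an error between rats and no difference between strains was tested. The reads behind each value are not given. The difference between strains is log2FC, the log2 of AN FPKM divided by SD FPKM, and a gene was counted as higher or lower past the fold where the difference was at least 2-fold. Genes entered a count where the mean of both groups was at least 1 FPKM and neither group was at 0, which left 11068 genes at 1 week and 11198 at 8 weeks. All 7 genes found met this filter in both phases, in AN as well as SD rats.

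Interferons are cytokines released when cells sense foreign or misplaced nucleic acid. Type I interferon acts through a receptor and the kinases JAK1 and TYK2, which lead to the complex ISGF3, with IRF9 as its DNA-binding part. ISGF3 binds the interferon-stimulated response element (ISRE) in the promoters of antiviral genes. Interferon gamma, made mainly by T cells and NK cells, acts at another element, the gamma-activated sequence (GAS). In injured central nervous tissue, microglia, macrophages, astrocytes and endothelial cells can all carry out such a response. The set covers several layers of it: Zbp1 senses nucleic acid, Irf7 and Irf1 are transcription factors, Mx1, Mx2 and Ifit3 act against viruses, and Cxcl10 draws in cells that carry the receptor CXCR3.

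Promoters are shown first, because they show which of these genes carry the letters of these elements. The sequences are from RefSeq on build GRCr8, which is not the build of the expression tables (RN4), and cover the 250 bases before the annotated start. The ISRE was searched as GAAA, any 2 bases and GAAA again, and the GAS as TTCNNNGAA, both on either strand. Capitals mark each match. A promoter was held for 5 of the 7 genes, and those of Zbp1 and Mx2 were not analysed here. Irf7 (chr1:205800024-205800273, minus strand) held an ISRE from -69 to -60, counted from the start. Ifit3 (chr1:241527076-241527325, plus strand) held one from -44 to -35, and both read on the opposite strand as TTTC, any 2 bases and TTTC. In Cxcl10 (chr14:15988816-15989065, plus strand) it lay from -243 to -234, near the far end of the window. Irf1 (chr10:38417685-38417934, plus strand) held no ISRE but a GAS from -142 to -134.
Irf7: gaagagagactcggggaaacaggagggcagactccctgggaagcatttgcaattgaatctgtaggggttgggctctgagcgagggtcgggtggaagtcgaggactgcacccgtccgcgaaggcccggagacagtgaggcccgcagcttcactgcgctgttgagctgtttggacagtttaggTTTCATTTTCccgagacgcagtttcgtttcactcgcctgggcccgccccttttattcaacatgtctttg
Ifit3: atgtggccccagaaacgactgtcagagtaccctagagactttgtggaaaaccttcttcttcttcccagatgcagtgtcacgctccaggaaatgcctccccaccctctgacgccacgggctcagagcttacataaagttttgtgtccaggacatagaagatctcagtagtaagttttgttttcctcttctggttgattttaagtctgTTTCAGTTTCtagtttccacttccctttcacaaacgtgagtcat
Cxcl10: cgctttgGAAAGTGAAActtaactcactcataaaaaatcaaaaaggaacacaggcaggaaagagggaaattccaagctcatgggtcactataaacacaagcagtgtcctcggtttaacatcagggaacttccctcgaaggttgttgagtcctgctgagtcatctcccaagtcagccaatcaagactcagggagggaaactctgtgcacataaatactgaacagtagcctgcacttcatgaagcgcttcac
Irf1: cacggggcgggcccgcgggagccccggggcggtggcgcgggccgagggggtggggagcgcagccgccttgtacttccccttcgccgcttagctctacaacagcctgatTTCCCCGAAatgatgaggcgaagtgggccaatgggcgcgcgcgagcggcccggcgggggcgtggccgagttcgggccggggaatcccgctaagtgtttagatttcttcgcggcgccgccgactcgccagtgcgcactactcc
The Mx1 promoter (chr11:50294607-50294856, minus strand) held neither string in this window. In none of the promoters did matches to the ISRE and the GAS overlap. The ISRE string was thus in 3 of 5 promoters of the set, beside 3.41% of 33469 RefSeq promoters, and the GAS string in 1 of 5, beside 7.67%. The ISRE was not particular to the set. Among the other pathway genes described below, it was in 9 of 16 promoters of antiviral ISGF3 targets. It was also in 5 of 8 for MHC class I loading, and in 0 of 9 for receptors and JAK-STAT signalling. A match of letters is a description and not a measured binding site.

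In the acute phase, 5 of the 7 genes were lower in AN rats past the fold and none was higher. Those lower were Irf7, Mx1, Mx2, Ifit3 and Cxcl10. Among all genes in that comparison, 10.1% were lower past the fold and 1.89% higher. The median log2FC of the 7 genes was -1.31, so that the median gene stood in AN rats at 40.4% of its SD level, while the median over all genes was 0.01. In the chronic phase the count was again 5 of 7 lower and none higher, now Zbp1, Irf7, Mx1, Mx2 and Ifit3, beside 5.55% of all genes lower and 2.05% higher. The chronic median log2FC of the set was -1.37, beside 0.01 over all genes. In both phases together, 4 of the 7 genes (57.1%) were lower past the fold, beside 4.22% of the 10858 genes with a ratio in both. Irf1 was the 1 gene of the set with a log2FC above 0 in either phase. How genes were named bears on these counts. All of the set but Irf1 were named through the study's gene table, of which a shortened copy was used, and among all genes named so 54.2% were lower past the fold at 1 week, 27.6% at 8 weeks and 24.5% in both. Among genes named by their place, as Irf1 was, 1.56% and 1.11% were lower. A gene that differed was thus more likely to be found, and the shares over all genes understate the background of the 6 genes named by symbol.

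**Figure D1:**
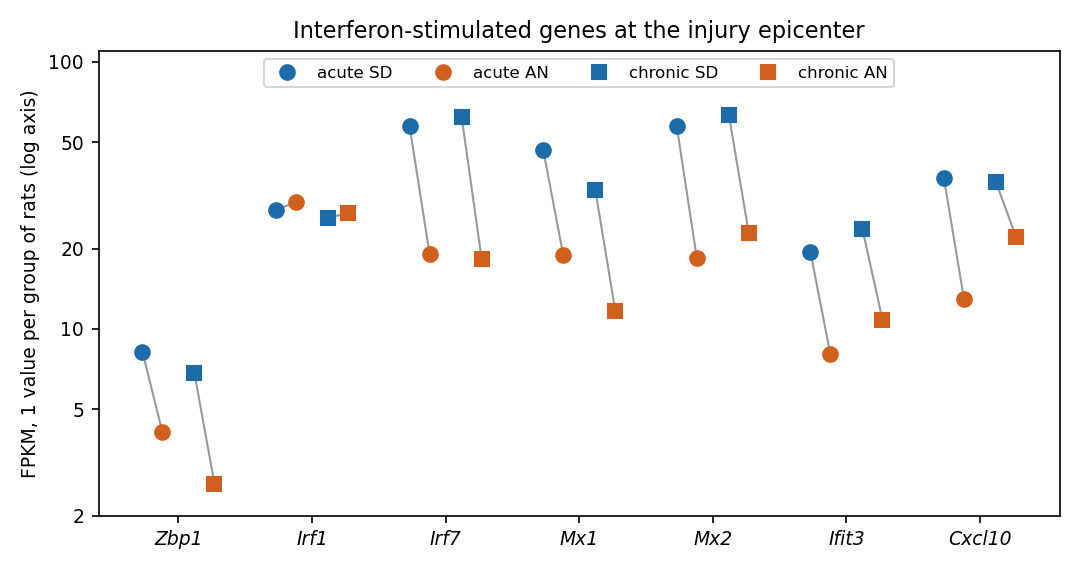
FPKM (log axis) of the 7 genes in each group, SD in blue and AN in orange, acute as circles and chronic as squares, with a line joining the strains of a phase. Each point is 1 value for a group of 3 rats and has no error bar. The lines slope down for all genes but Irf1, which is nearly level at 26.0 to 29.8 FPKM.

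Zbp1 (RGD:619956, chromosome 3, 164078444 to 164088795 on RN4) encodes a sensor of Z-form nucleic acid that can start necroptosis through the kinase RIPK3. It was the least expressed gene of the set in every group. The acute level was 8.23 FPKM in SD rats and 4.11 in AN rats, and the chronic level was 6.81 and 2.64. The acute log2FC of -0.9997 was just short of the 2-fold limit, so Zbp1 is not in the acute count of 5. It reached -1.01 when all ratios were centred on the median over all genes, which made the acute count 6. The chronic log2FC was -1.37, and only 3.92% of all genes had a lower one.

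Irf7 (RGD:1307828, chromosome 1, 201456689 to 201459756) encodes the factor that amplifies type I interferon production and is itself induced by interferon. In the acute phase it stood at 57.5 FPKM in SD rats and 19.1 in AN rats, a log2FC of -1.59. In the chronic phase it stood at 62.2 and 18.3 FPKM, a log2FC of -1.77 and the lowest of the set in that phase. The SD level was therefore 3.01-fold the AN level at 1 week and 3.41-fold at 8 weeks. Of all genes, 5.07% had a lower acute and 2.55% a lower chronic log2FC.

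Irf1 (RGD:2920, chromosome 10, 39220600 to 39227602) encodes a related factor that drives many interferon gamma-induced genes. Its acute level was 27.9 FPKM in SD rats and 29.8 in AN rats, and its chronic level 26.0 and 27.3. The log2FC of 0.10 and 0.07 placed it near the middle of all genes, with 60.2% and 59.6% of them lower. Its identifier was assigned by its place between named neighbours, while the other 6 were assigned by symbol.

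Mx1 and Mx2 encode dynamin-like GTPases that trap viral components, and they lie close together on chromosome 11. Mx1 (RGD:3127, 37438473 to 37462363) stood in the acute phase at 47.0 FPKM in SD rats and 19.0 in AN rats, and in the chronic phase at 33.2 and 11.7. Its log2FC was -1.31 and -1.50. Mx2 (RGD:628821, 37548650 to 37572717) stood in the acute phase at 57.5 and 18.5 FPKM, and in the chronic phase at 63.4 and 22.8. Its log2FC was -1.64, the lowest of the set in the acute phase, and -1.48. Mx1 and Mx2 are paralogs, and reads from stretches that they share could have been assigned to either. Each stood in AN rats at 32.1% to 40.4% of its SD level.

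Ifit3 (RGD:1359681, chromosome 1, 238571300 to 238576443) belongs to a family of proteins that bind viral RNA and block its translation. It stood in the acute phase at 19.5 FPKM in SD rats and 8.04 in AN rats, which gave a log2FC of -1.28. At 8 weeks the levels were 23.7 and 10.8 FPKM and the log2FC was -1.13.

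Cxcl10 encodes a chemokine for T cells and NK cells that carry CXCR3. Its acute level was 36.6 FPKM in SD rats and 13.0 in AN rats, giving a log2FC of -1.50, and its chronic level was 35.5 and 22.0 FPKM, a log2FC of -0.69. It was thus past the fold at 1 week and not at 8 weeks. Its row (RGD:620209) gives chromosome 14, 17198267 to 17280642, a locus of 82.4 kb that is listed for 3 genes, with Cxcl11 and Art3 the others. How fragments were divided among them is not known, so its values are uncertain.

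**Figure D2:**
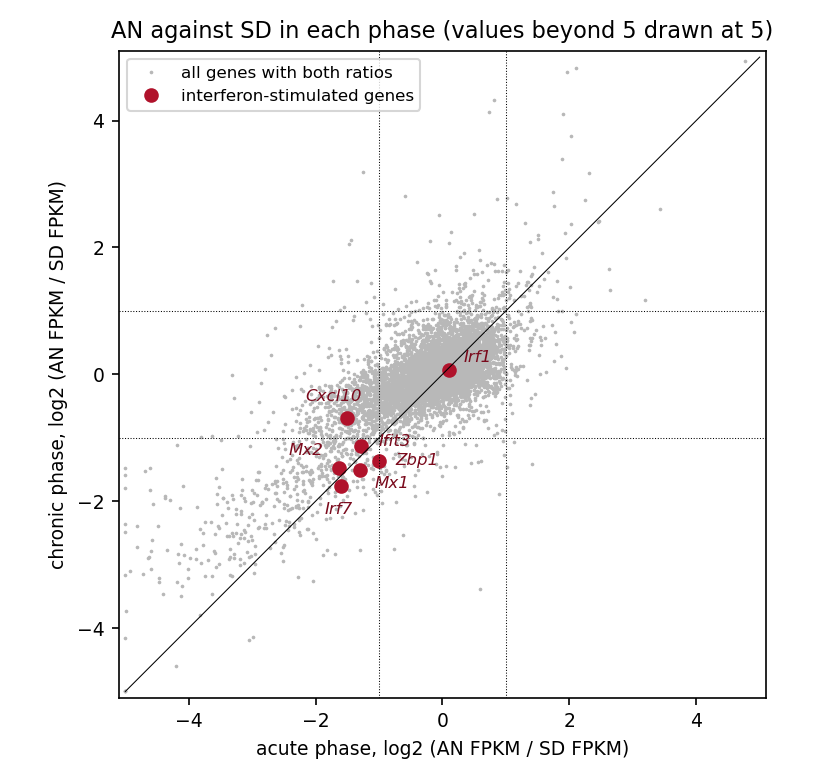
Acute log2FC (horizontal) against chronic log2FC (vertical) of 10858 genes in grey and of the 7 interferon-stimulated genes in red, with dotted lines at the 2-fold limits and a solid line where both are equal. Irf7, Mx1, Mx2 and Ifit3 lie in the lower left beyond both limits, Zbp1 on the acute limit, Cxcl10 beyond the acute limit only, and Irf1 near the centre.

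The order of the genes by level was unlike in the 2 strains. In SD rats Irf7 and Mx2 were highest in both phases, at 57.5 FPKM each at 1 week and 62.2 and 63.4 at 8 weeks, and Irf1 was in place 5 of 7. In AN rats Irf1 was highest in both phases, at 29.8 and 27.3 FPKM. Next in acute AN rats came Irf7, Mx1 and Mx2, at 18.5 to 19.1 FPKM. Ifit3 and Zbp1 were in the places 6 and 7 of every group. Since no spread between rats is given, it is not known which neighbours in these orders differ.

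The strain difference at 8 weeks was set beside that at 1 week, although the tables were normalised separately and the difference between phases was not tested. For Irf1, Irf7, Mx1, Mx2 and Ifit3 the chronic log2FC was within 0.20 of the acute one. For Zbp1 it was lower by 0.37, and 31.3% of all genes moved by at least as much. For Cxcl10 it was higher by 0.81, from -1.50 to -0.69, and 10.1% of all genes moved by at least as much. The Cxcl10 level in SD rats was 36.6 FPKM in the acute and 35.5 in the chronic table, and that in AN rats was 13.0 and 22.0.

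The other genes of the pathway were taken from 9 lists of 128 symbols, of which 70 genes were found and 66 had a ratio in each phase. In the acute phase 9 of the 66 were lower in AN rats past the fold and 2 higher, with a median log2FC of 0.05. In the chronic phase 6 were lower and 1 higher, with a median of -0.06. The share lower was 13.6% and 9.09%, beside the 10.1% and 5.55% of all genes given above. All genes of the lists that were lower past the fold, other than Cxcl9 and Cxcl11, were named through the study's gene table, so the difference in naming given above holds for them too. Every gene that was lower past the fold belonged to the antiviral ISGF3 targets or, in the acute phase, to the CXCR3 axis.

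**Figure D3:**
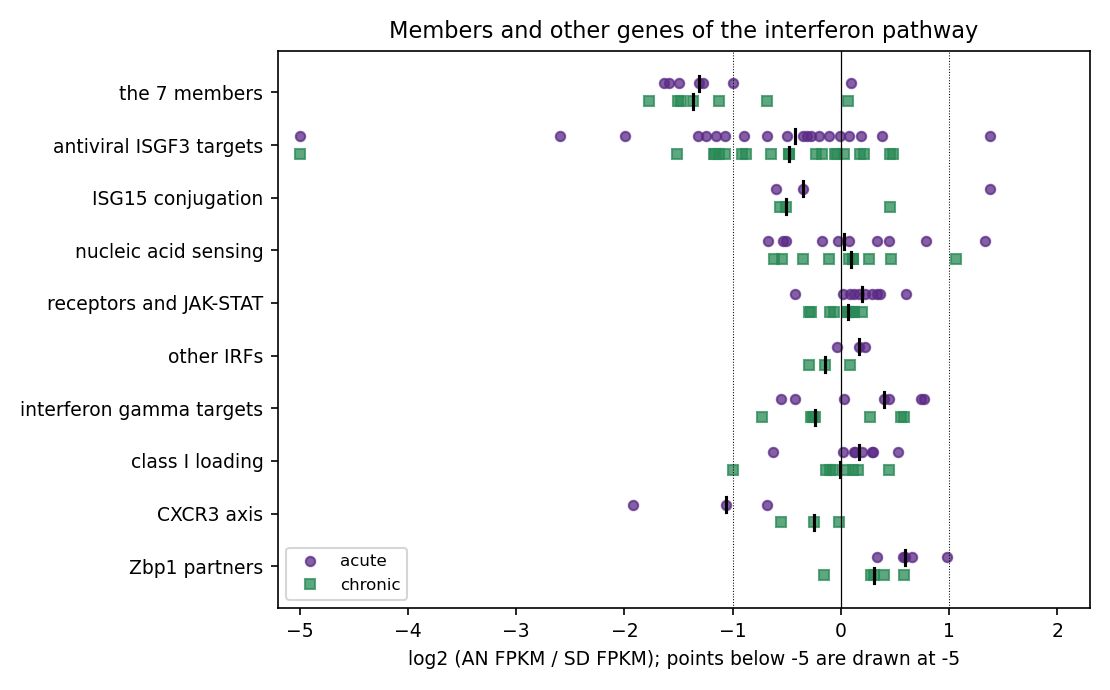
The log2FC of each gene in the set and in the 9 lists, acute as purple circles and chronic as green squares, with black bars at the medians and dotted lines at the 2-fold limits. In each phase 5 of the 7 genes and part of the antiviral ISGF3 targets lie left of the lower limit, and receptors, JAK-STAT genes and class I loading lie between the limits. Ifit1, below -5 in both phases, is drawn at -5.

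Antiviral targets of ISGF3 were lower past the fold in 7 of 20 cases in the acute phase, with 1 higher. Of all genes, 10.1% were lower and 1.89% higher. In the chronic phase 6 of 20 were lower and none higher, beside 5.55% and 2.05% of all genes. The lower targets were all named through the study's gene table, where 54.2% and 27.6% of all genes were lower. Some of the lower targets passed the filter only through SD rats, namely Ifit1 in both phases and Ifitm6 at 1 week. Among genes at 1 FPKM or more in both strains, 5 of 18 were lower at 1 week and 5 of 19 at 8 weeks. The share of all genes under this stricter filter was not computed, so these counts have no background beside them. Ifit1, the RNA-binding neighbour of Ifit3, had the lowest value of the list in both phases. It stood at 20.8 FPKM in acute SD rats and at 0.152 in acute AN rats, and at 19.9 and 0.0325 in the chronic phase. The Ifit1 level in AN rats was thus close to 0, unlike that of Ifit3, which remained at 8.04 and 10.8 FPKM. Ifi27l2b, of a family of small interferon-induced membrane proteins, stood at 225 and 56.3 FPKM at 1 week and at 407 and 181 at 8 weeks. Ifitm6, of the family that hinders viral entry, stood at 2.13 and 0.353 FPKM in the acute phase. Oasl, related to the synthetases that switch on RNase L, had a log2FC of -0.90 at 1 week and -1.51 at 8 weeks.

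Some genes of this list were chosen for mention after their values were seen. Oas1a, a 2'-5' oligoadenylate synthetase, had a log2FC of -1.25 and -0.87, and its paralog Oas1b had -1.15 and -1.07. Ifi27 was among the most abundant, at 697 and 278 FPKM at 1 week and 990 and 454 at 8 weeks. Ifitm3, which hinders viral entry from endosomes, stood apart from these, at 415 and 412 FPKM in the acute phase (log2FC of -0.01) and 507 and 587 in the chronic phase (0.21). It was named by its place and shares its listed locus with another gene, so its values are uncertain. Ifit2, another neighbour of Ifit3, had a log2FC of -0.50 and -0.03. Ddx60, a helicase that aids RNA sensing, was the 1 gene of the list higher past the fold, at 4.58 FPKM in acute SD and 11.9 in acute AN rats. Members of the Ifit, Oas and Ifi27 families resemble each other, so their split of reads is uncertain.

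Upstream of these targets, none of the 10 measured genes for receptors and JAK-STAT signalling was past the fold in either phase. Their median log2FC was 0.20 at 1 week and 0.07 at 8 weeks. Irf9, the DNA-binding part of ISGF3, had a log2FC of 0.17 and -0.29. Jak2 had 0.36 and 0.20, and Ptpn6, a phosphatase that restrains signalling, had 0.60 and 0.07. The other interferon regulatory factors measured, Irf5, Irf8 and Irf9, lay between -0.29 and 0.22. Ifnb1, the gene for interferon beta, was at or under 0.0859 FPKM in all groups.

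Nucleic acid sensors were mixed, with none of 10 lower past the fold in either phase. The cytosolic RNA helicases of this list lay below 0. Rig1 had a log2FC of -0.67 at 1 week and -0.35 at 8 weeks, Ifih1 had -0.50 and -0.54, and Dhx58 had -0.53 and -0.61. The helicase Ddx60, named above from another list, went the other way, at 1.38 and 0.46. Mnda, a gene of the interferon-inducible DNA-binding family, was higher past the fold in AN rats in both phases, at 7.86 and 19.8 FPKM at 1 week and 4.84 and 10.1 at 8 weeks. Ikbke, a kinase that activates Irf3 and Irf7, had 0.79 in the acute phase. Of 3 genes listed for ISG15 conjugation, none was lower past the fold and Ddx60, named above, was higher at 1 week. Ddx60 is a helicase and not an enzyme of this conjugation, so its value does not bear on it. The enzymes that attach ISG15 to proteins had values below 0, where Ube2l6 had -0.35 and -0.51 and Herc6 had -0.60 and -0.56.

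Of 7 measured genes downstream of interferon gamma, 5 had an acute log2FC above 0 and 3 a chronic one, beside 50.6% and 51.2% of all genes. None was past the fold in either phase, and the median log2FC was 0.40 at 1 week and -0.24 at 8 weeks. Cd274, which encodes the T cell inhibitor PD-L1, had 0.74 and 0.58. Ifi30, a lysosomal thiol reductase of antigen processing, had 0.77 in the acute phase. Gch1, which makes the cofactor of nitric oxide synthase, had -0.55 and -0.73. Of 8 genes for the immunoproteasome and MHC class I loading, none was past the fold. Psmb8, an immunoproteasome subunit, came nearest, at 97.6 and 63.2 FPKM at 1 week and 90.6 and 45.3 at 8 weeks. Its chronic log2FC of -0.9997 was just short of the limit and passed it when centred on the median over all genes or divided by the upper quartile, which made the chronic count 1. Tap2, a subunit of the peptide transporter, had 0.53 and 0.44.

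In the CXCR3 axis, the ligands Cxcl9 and Cxcl11 were both lower past the fold at 1 week and neither at 8 weeks. Cxcl9, which interferon gamma induces, stood at 7.09 FPKM in SD rats and 1.87 in AN rats at 1 week, and at 4.82 and 4.08 at 8 weeks. Cxcl11, which shares its listed locus with Cxcl10, stood at 7.16 and 3.43 FPKM, and then at 3.38 and 3.34. The receptor gene Cxcr3 was at or under 1.35 FPKM in every group. All 3 ligands of CXCR3 had a log2FC nearer 0 in the chronic than in the acute phase. The spread over all genes narrowed too, with quartiles of -0.32 and 0.24 at 1 week and -0.18 and 0.18 at 8 weeks. How many of all genes moved nearer 0 was not counted. Because of the shared locus, Cxcl10 and Cxcl11 are not separate observations. All 3 genes of this list were named by their place.

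The 5 partners of Zbp1 in cell death had an acute log2FC from 0.33 to 0.98, above 0 as for 50.6% of all genes. None was past the 2-fold limit and 3 of the 5 were higher past a 1.5-fold limit, as were 7.37% of all genes. Ripk3, the kinase that Zbp1 binds, stood at 22.9 FPKM in acute SD and 45.2 in acute AN rats, and at 14.3 and 12.8 in the chronic phase. Mlkl, which forms the pore of necroptosis, had a log2FC of 0.57 and 0.40. Fadd, an adaptor of death receptors, had 0.66 and 0.58.

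Markers of the cell types in the tissue differed between strains as well, and their part in the results above was not tested. The 4 neuron markers found were lower past the fold in both phases, beside 10.1% and 5.55% of all genes. Their summed level was 599.8 FPKM in SD rats and 57.7 in AN rats at 1 week and 540 and 128 at 8 weeks. The neuron and oligodendrocyte markers found were named through the study's gene table, where 54.2% and 27.6% of all genes were lower. The 3 oligodendrocyte markers summed to 820 and 304 FPKM in the acute phase, all past the fold, and to 845 and 734 in the chronic phase, none past it. The 8 macrophage and microglia markers summed to 1704 and 2607 FPKM in the acute phase, 3 of them higher past the fold. In the chronic phase they summed to 1035 and 1283, with 2 higher. Of all genes, 1.89% and 2.05% were higher past the fold. Without Cd68 the other 7 summed to 590 and 850 FPKM at 1 week and to 428 and 442 at 8 weeks. Of the 8, 1 had an acute log2FC below 0 and 4 a chronic one, beside 49.4% and 48.8% of all genes. Tmem119 was below 0 in both, at -0.12 and -0.36. The cord's own markers passed the filter in both phases where an estimate was given. The 2 astrocyte markers found summed to 4017 and 1442 FPKM at 1 week. At 8 weeks Gfap had a failed estimate and Slc1a2 stood at 91.1 and 75.8 FPKM. None of the 4 endothelial markers was matched. Cd163, of perivascular and infiltrating macrophages, had a log2FC of 1.95 and 1.84.

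The Cd3 genes and the B cell markers were low in all groups, while other lymphocyte markers went both ways. Of the 9 T cell markers found, 5 passed the filter, of which 2 were lower and 1 higher past the fold at 1 week, and none lower and 1 higher at 8 weeks. Among the 4 at 1 FPKM or more in both strains at 1 week, 1 was lower and 1 higher, since Cd3g passed the filter only through SD rats. Cd4, of helper T cells, stood at 102 and 44.4 FPKM at 1 week, while Cd8a, of cytotoxic T cells, stood at 76.0 and 199. Cd2, an adhesion molecule of T cells and NK cells, stood at 1.88 and 3.81 FPKM at 8 weeks. Cd3g, a subunit of the T cell receptor complex, stood at 2.74 FPKM in acute SD and 0.531 in acute AN rats, and at 2.58 and 1.40 in the chronic phase. Cd3d and Cd3e were at or under 1.07 FPKM in every group. The 9 markers together summed to 218 and 290 FPKM at 1 week, and without Cd8a to 142 and 90.8, which turns the direction. At 8 weeks they summed to 154 and 130, most of it in both phases from Cd4, Cd8a and Cd8b, and rat macrophages can also express CD4 and CD8. The 6 NK cell markers found summed to 18.6 and 30.3 FPKM at 1 week and to 18.2 and 28.6 at 8 weeks, most of it from Klra5, a receptor of a large gene family, at 15.9 and 28.3 and at 15.8 and 24.3. The other 5 summed to 2.65 and 1.98 FPKM at 1 week, lower in AN rats, and to 2.41 and 4.31 at 8 weeks. Siglech, a marker of plasmacytoid dendritic cells and microglia, was at or under 0.504 FPKM in every group, and the 2 B cell markers summed to at most 0.572. Bst2, the other plasmacytoid marker found, is also among the antiviral ISGF3 targets. It stood at 211 and 132 FPKM at 1 week and at 321 and 231 at 8 weeks, a log2FC of -0.68 and -0.48.

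**Figure D4:**
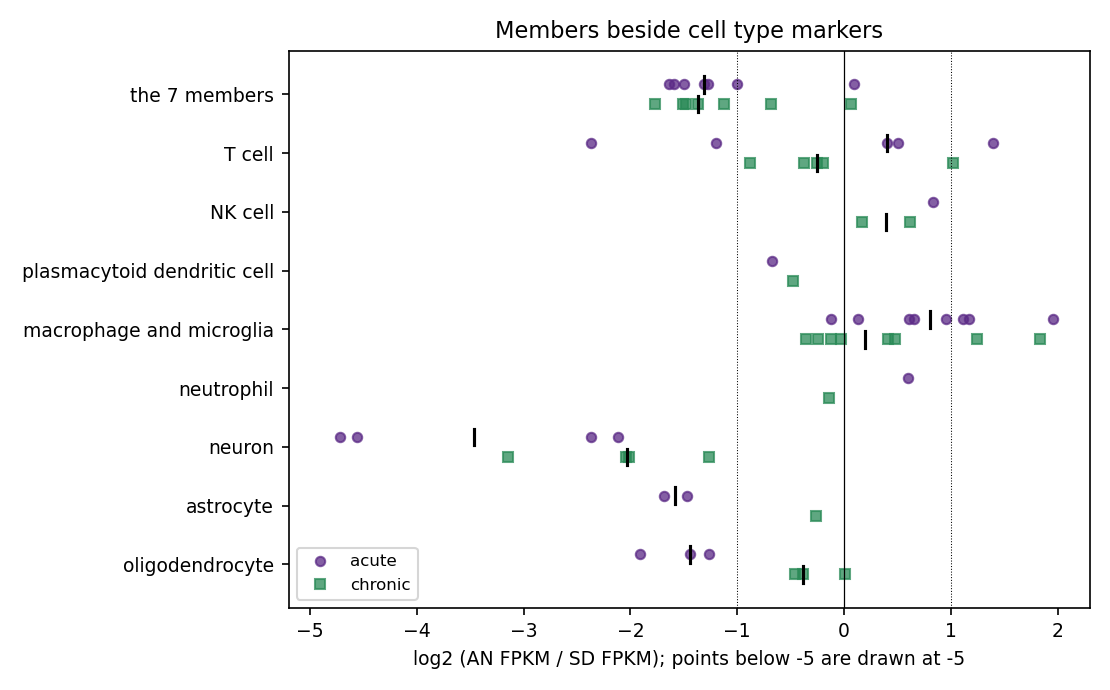
The log2FC of the 7 interferon-stimulated genes and of the cell type markers that passed the filter, acute as purple circles and chronic as green squares, with black bars at medians and dotted lines at the 2-fold limits. Neuron markers lie left of the limit in both phases and oligodendrocyte markers in the acute phase only, while macrophage and microglia markers have medians of 0.80 and 0.19.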

How the data were processed

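RNA from 12 injured spinal cord segments was sequenced as paired-end libraries. The authors mapped reads to RN4 with TopHat (version 1.5.0), assembled transcripts with Cufflinks (version 0.0.6) using quartile normalisation, merged them by time point, and compared strains with Cuffdiff. They deposited 2 tables, 1 per phase, each with 1 FPKM value per group. The fold change, test statistic, p-value, q-value and significance columns hold the authors' own comparisons and were not used. In all, 3 acute and 2 chronic rows with a failed estimate were left out. No pseudocount was added.

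The tables list RGD identifiers and RN4 coordinates, given here counted from 1. Of 17423, 4715 were named through the study's gene table or RGD numbers in the GRCr8 RefSeq table, and 7486 by place and strand between named neighbours. Of 2250 held-out names, 1557 were named again, 1516 (97.4%) correctly. Genes named beside the set were those with the 3 largest absolute log2FC per list and phase. Some genes are not reported here. The set and lists were chosen with earlier results of these data known. Ratios were computed with Python (pandas 2.3.3) and tested on simulated data.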

Additional observations from a re-analysis of the deposited data

How the results depend on the processing

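The counts of lower genes in the set ranged from 4 to 6 over 9 alternatives, some of which left 6 genes in place of 7, and the medians of the log2 ratios stayed at or below -1.10 in both phases. Of 121 values of single genes under these alternatives, 117 stayed on the same side of the limit. The exceptions were Zbp1 in the acute phase, at -1.01 when centred on the median of all genes or divided by the upper quartile, and, with a 1.5-fold limit, Zbp1 at 1 week and Cxcl10 at 8 weeks. A requirement of at least 5 FPKM left out Zbp1 in the chronic phase, and 4 lower genes remained in the count. An alternative chosen after seeing the data, without genes that share a locus, left out Cxcl10 and gave 4 at 1 week and 5 at 8 weeks.

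The share of all genes lower past the fold moved more. It was 15.9% at 1 week and 9.35% at 8 weeks with no filter, 6.27% and 2.94% with at least 5 FPKM, and 16.7% and 9.71% with the 1.5-fold limit. The acute count in the CXCR3 axis fell from 2 to 1 with a pseudocount of 1 FPKM, with at least 5 FPKM or without genes that share a locus, and to 0 with genes named directly. The chronic count of higher nucleic acid sensors fell from 1 to 0 with a pseudocount of 1 FPKM. With the 1.5-fold limit, the acute counts of higher genes rose from 0 to 3 among partners of Zbp1, from 0 to 2 among interferon gamma targets, from 0 to 1 among receptors and JAK-STAT genes and from 1 to 2 among sensors. With the same limit, lower genes rose from 0 to 1 among sensors and class I loading genes in both phases, among ISG15 conjugation genes at 1 week and among interferon gamma targets at 8 weeks. Centring or the upper quartile also gave 1 lower class I loading gene at 8 weeks. With no filter, 1 antiviral ISGF3 target was higher at 8 weeks. Lower antiviral ISGF3 targets numbered 6 to 9 at 1 week, and 4 (pseudocount of 1 FPKM) to 9 (1.5-fold limit) at 8 weeks.

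Leaving out single rats was not possible, because the tables hold 1 value per group. No paired analysis was possible because the result comes from no test and the columns carry no replicate numbers. Depth per gene is unknown, so low values such as those of Ifit1 in AN rats have no stated precision.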

Other observations

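Outside the lists, the 5 directly named genes whose pair of acute and chronic log2 ratios lay nearest to the medians of the set, out of 2947 with a mean of at least 5 FPKM, included Tpd52l1, Rsph1, RGD1563319 and Brsk1. Tpd52l1 stood at 7.75 and 2.98 FPKM in acute SD and AN rats and at 8.85 and 3.39 in the chronic phase. Brsk1, a kinase of neuronal polarity, stood at 36.8 and 13.4 FPKM and at 35.2 and 14.1. Rsph1, a component of the radial spokes of motile cilia, stood at 4.24 and 1.59 FPKM and at 11.1 and 4.39. The measure of likeness was the Euclidean distance over these 2 ratios, which was 0.0731 for Tpd52l1 and 0.157 for Brsk1, and 2 ratios cannot single out a shared pattern.

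Over all measured genes with a promoter, those with the ISRE string in the 250 bases before the start are given beside those without it. In the acute phase 25 of 205 (12.2%) were lower past the fold, beside 10.5% of the 6797 without it. In the chronic phase it was 16 of 202 (7.92%), beside 5.78% of 6884. For the GAS string the shares were 11.2% with and 10.5% without at 1 week, and 5.73% and 5.85% at 8 weeks. These shares are descriptions and were not tested.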
